A study of Mus musculus with 6 samples.

Results

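Glycolysis and the response to low oxygen were followed through 37 genes on Agilent 1-colour mouse arrays, out of 27617 gene names with a probe. The genes were taken by symbol. They comprise 23 genes of glycolysis (3 transporters, 17 enzymes and 3 regulators) and 14 genes of the hypoxia response (4 genes of oxygen sensing and 10 targets). Of these, 36 could be tested among 15650 genes, and Car12, a carbonic anhydrase, could not, because its probe was well above background on the 3 replicate 2 arrays alone.

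The arrays held RNA of mouse embryonic fibroblasts (MEFs), primary connective tissue cells, at day 8 of reprogramming towards pluripotency. There were 3 groups of 2 arrays, numbered replicate 1 and replicate 2 in the labels. One group was infected with SKO plus Gadd45a, a stress-induced gene of growth arrest and DNA damage (shortened to Ga in the sample titles). The next was infected with SKO plus G39A, described in the series' design text as a negative mutant of Gadd45a. The last was infected with SKO plus Flag. Every group carried SKO, which the labels do not spell out, and there was no array of uninfected fibroblasts. Per the labels' protocols, the medium was high-glucose DMEM with serum, pyruvate and LIF, the cytokine used to grow mouse stem cells. The virus, the strain of the mice, the oxygen level of the cultures and whether replicates came from separate cultures are not given there, so p-values measure the spread between these arrays.

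Glycolysis splits glucose into pyruvate and yields ATP without oxygen. Lactate dehydrogenase can then turn pyruvate into lactate, which leaves the cell through transporters. Cells that lack oxygen lean on this route. They stabilise the hypoxia-inducible factors (HIFs), whose alpha subunits are encoded by Hif1a and Epas1, because the oxygen-dependent prolyl hydroxylases of the Egln family no longer mark them for degradation. HIFs then switch on glucose transporters, glycolytic enzymes, Vegfa and other targets. Pluripotent stem cells rely on glycolysis more than fibroblasts do, and a shift towards it is a known step of reprogramming.

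The replicate number parted the arrays more than the introduced gene did. All 3 replicate 2 arrays shared 1 slide and 1 scan, the Gadd45a and Flag replicate 1 arrays shared another slide, and the G39A replicate 1 array was on a slide of its own. Replicate number and slide cannot be told apart. No spot was saturated, and 57.0% to 62.9% of the spots of an array were well above background. The probe for Gadd45a gave scaled signals of 2061 in Gadd45a, 2269 in G39A and 2378 in Flag on the replicate 2 arrays, and of 540 in Gadd45a, 1210 in G39A and 1013 in Flag on the replicate 1 arrays. It was thus no brighter in the group labelled Gadd45a. Whether this probe reads the introduced copy is not given in the sources used here, so it checks no label, and the group names below are those of the labels.

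Signals below are scaled signals, in arbitrary units: each array's processed probe intensity, brought to a common 75th percentile over the 6 arrays. Probes differ in brightness, so a level may be compared between arrays and not between genes. Differences are on the log2 scale, and a gene counts as called when its limma p-value, adjusted over all genes tested by Benjamini-Hochberg, is under 0.05.

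In replicate 2 against replicate 1, most of the 37 genes were higher. Of the 36 tested, 25 rose and 6 fell past the threshold, and 5 were not called. The share called was 86.1%, beside 56.4% of all genes tested, of which 33% were higher and 23.4% lower. At least 2-fold and past the threshold, 16 of the 36 were higher and 3 lower, beside 10.4% of all genes in each direction. The glycolysis genes had 14 higher and 4 lower of 23, with a median difference of 0.75, which was 0.46 after quantile normalization and 0.45 in the authors' value table. The hypoxia genes had 11 higher and 2 lower of 13, with a median of 1.65. The median of all genes tested was 0.11. On 26 of the 36 genes every replicate 2 array lay above every replicate 1 array, and on 7 below it, where 40% and 27.3% of all genes did so (67.3% in either direction).

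**Figure D1:**
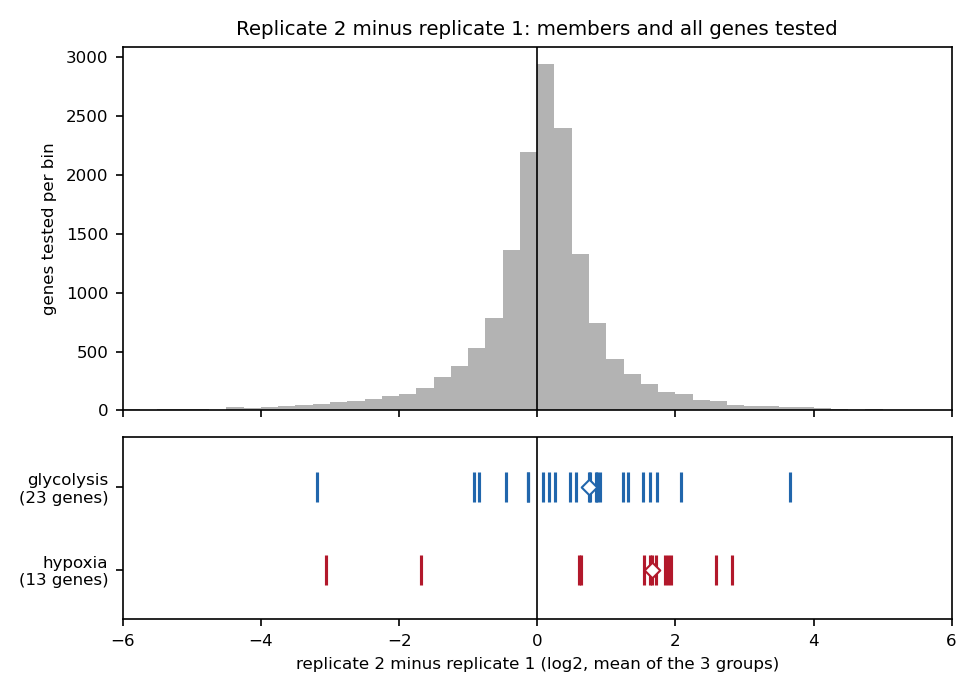
Number of genes tested per bin of the log2 difference between replicate 2 and replicate 1, averaged over the 3 groups (upper panel), and the 36 tested genes as ticks with the list median as a diamond (lower panel). The glycolysis median lies at 0.75 (0.46 after quantile normalization and 0.45 in the authors' value table) and the hypoxia median at 1.65, beside 0.11 for all genes.

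The upstream sequences of the genes with the largest calls are shown because HIFs bind short DNA motifs with the core ACGTG or GCGTG. The RefSeq promoter table (GRCm38.p6) had 48 windows for 34 of the 37 genes. The 250 bases before the start were searched on both strands for these letters, so that CACGT and CACGC are also matches, and a CACGTG counts on both strands. Of the 48 windows, 47.9% held ACGTG, 54.2% held GCGTG and 79.2% held either. Over all 32851 windows in the table the shares were 16.6%, 28.2% and 38.6%. The hypoxia genes had 13 windows, of which 76.9% held ACGTG, and the glycolysis genes 35 windows, of which 37.1% did. Windows of genes higher in replicate 2 held either motif in 27 of 32, and those of genes lower in replicate 2 in 5 of 5. For ACGTG the shares were 56.25% and 20%, and for GCGTG 59.4% and 80%. The 5 windows belonged to 4 genes, without Slc2a3 and Epas1, which had no window. A match describes letters and is not a measured binding site. The list was made of glycolysis and hypoxia genes, HIF targets among them, so its higher shares are no independent evidence of HIF action. Each motif contains the letters CG, and the CG content of the windows was not compared. Windows of the same gene were counted separately, so that the 35 glycolysis windows came from 22 genes. The differences in share were not tested.

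The windows of Slc16a3 (chr11:120948817-120949066, plus strand), Adm (chr7:110627407-110627656, plus strand), Bnip3 (chr7:138909507-138909756, minus strand) and Pfkl (chr10:78009808-78010057, minus strand) read as follows from 5′ to 3′. Capitals mark the matches on either strand, and each sequence ends at the base before the start.
Slc16a3: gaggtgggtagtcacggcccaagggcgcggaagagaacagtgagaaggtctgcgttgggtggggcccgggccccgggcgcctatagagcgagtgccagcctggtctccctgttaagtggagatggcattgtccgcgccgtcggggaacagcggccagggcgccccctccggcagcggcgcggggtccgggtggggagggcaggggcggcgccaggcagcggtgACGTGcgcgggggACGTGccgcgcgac
Adm: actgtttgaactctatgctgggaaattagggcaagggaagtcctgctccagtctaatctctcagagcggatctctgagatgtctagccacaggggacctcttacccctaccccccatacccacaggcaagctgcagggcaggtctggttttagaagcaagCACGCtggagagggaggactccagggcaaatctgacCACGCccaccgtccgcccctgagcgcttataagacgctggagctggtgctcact
Bnip3: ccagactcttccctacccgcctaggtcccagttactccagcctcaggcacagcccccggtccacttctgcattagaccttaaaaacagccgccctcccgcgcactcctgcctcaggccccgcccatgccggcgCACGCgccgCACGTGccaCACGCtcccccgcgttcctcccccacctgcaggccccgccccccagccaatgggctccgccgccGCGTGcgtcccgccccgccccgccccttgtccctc
Pfkl: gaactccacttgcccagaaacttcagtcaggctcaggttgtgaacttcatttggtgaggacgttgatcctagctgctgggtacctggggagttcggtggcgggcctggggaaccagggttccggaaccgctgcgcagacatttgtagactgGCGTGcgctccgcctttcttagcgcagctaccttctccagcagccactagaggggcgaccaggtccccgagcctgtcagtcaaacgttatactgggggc
Slc16a3 held ACGTG at 27 and 14 bases before the start, counted from the first base of the match. Adm held CACGC at 90 and 54 bases before it. Bnip3 held the palindrome CACGTG and 3 matches of GCGTG over both strands, and Pfkl held 1 GCGTG at 99 bases. Slc2a3 and Epas1, which also had large differences, are named without a sequence.

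The transporters moved in both directions. Slc16a3, the lactate exporter MCT4, had the largest rise of the 36 genes (probe on chromosome 11, 120820023 to 120820082, mm9). Its scaled signal was 19674 in Gadd45a, 13152 in G39A and 12603 in Flag on the replicate 2 arrays, against 1303 in Gadd45a, 1072 in G39A and 1153 in Flag on the replicate 1 arrays. Every replicate 2 array was far above every replicate 1 array, a log2 difference of 3.66 ± 0.12 (SE, n = 3 arrays per replicate number here and below), or 12.7-fold (limma adjusted p = 0.000156). Slc2a1, the widespread glucose transporter GLUT1 (chromosome 4, 118809864 to 118809923), gave 13903 in Gadd45a, 11400 in G39A and 10229 in Flag in replicate 2, against 4403 in Gadd45a, 3055 in G39A and 3232 in Flag in replicate 1. The 2 sets of arrays did not overlap, and the gene was higher by 1.74 ± 0.09 in replicate 2, or 3.34-fold (limma adjusted p = 0.000364).

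Slc2a3, the high-affinity glucose transporter GLUT3, which is abundant in neurons and early embryos, moved the other way (chromosome 6, 122678075 to 122678134). It gave 396 in Gadd45a, 468 in G39A and 477 in Flag in replicate 2, against 4713 in Gadd45a, 3557 in G39A and 4005 in Flag in replicate 1. This was the largest fall of the 36 genes, with a difference of -3.19 ± 0.15, or 9.12-fold lower (limma adjusted p = 0.0003). The glucose transporters GLUT1 and GLUT3 thus changed in opposite directions in each of the 3 groups.

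**Figure D2:**
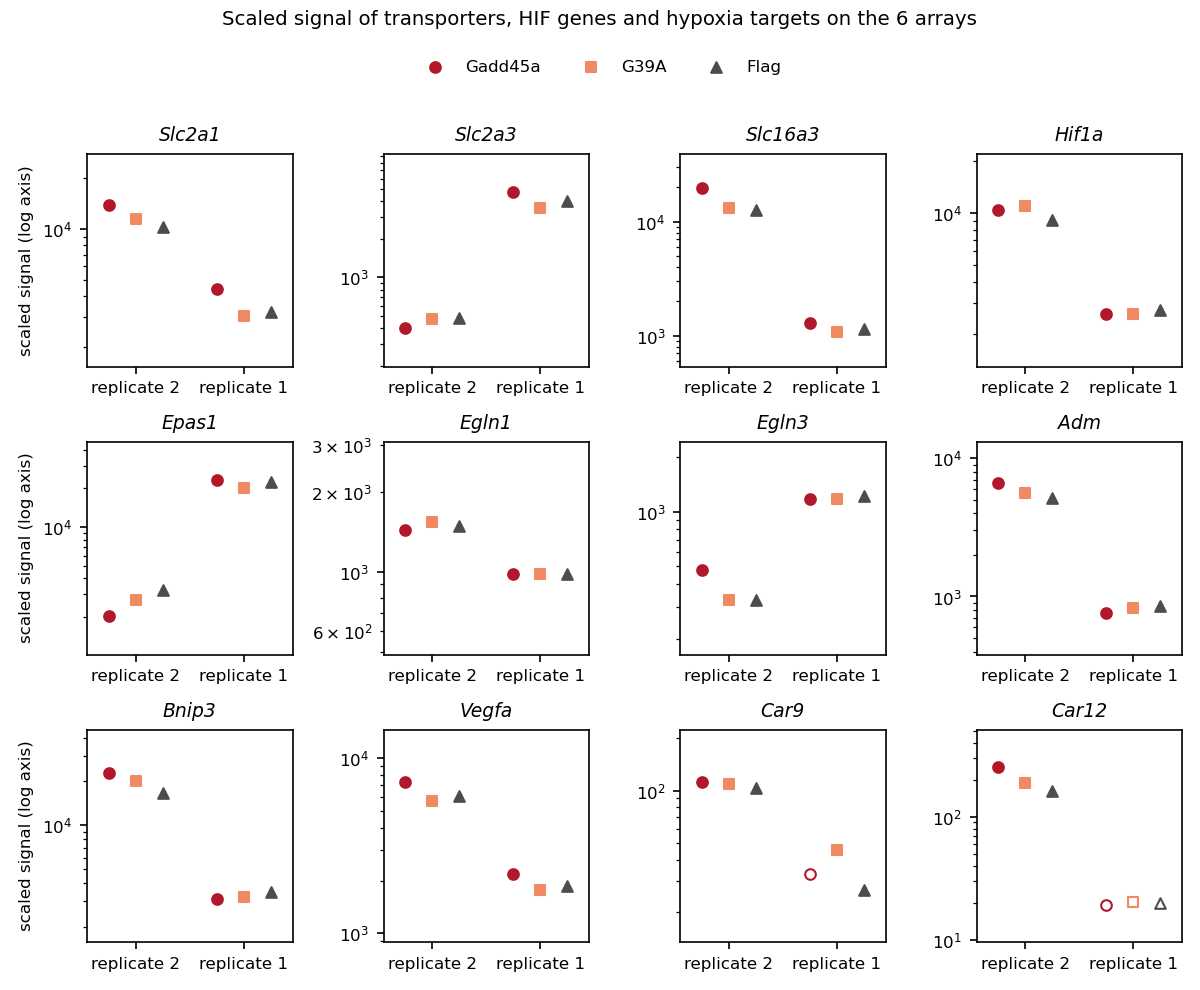
Scaled signal (log axis, arbitrary units, own range for each gene) on each of the 6 arrays for the transporters, the HIF and Egln genes and 5 hypoxia targets. Open symbols are arrays on which the probe was not well above background. Slc2a3, Epas1 and Egln3 were lower on the replicate 2 arrays, and the other 9 genes were higher there.

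Of the 17 enzymes, 10 rose and 2 fell in replicate 2 against replicate 1, and the median difference was 0.57. The share called was 70.6%, beside 56.4% of all genes tested. Past the threshold, 3 of the 17 were at least 2-fold higher, beside 10.4% of all genes. The phosphofructokinase subunits, which make up the enzyme of the committed step, parted from one another. Pfkl, the liver-type subunit (chromosome 10, 77450926 to 77450985), gave 3285 in Gadd45a, 2880 in G39A and 2734 in Flag in replicate 2, against 792 in Gadd45a, 622 in G39A and 701 in Flag in replicate 1. It had the largest rise among the enzymes, 2.08 ± 0.09, or 4.21-fold (limma adjusted p = 0.000234). Pfkp, the platelet-type subunit, was lower by a difference of -0.84 ± 0.13 (limma adjusted p = 0.00631). Pfkm, the muscle-type subunit, differed by 0.16 ± 0.08 and was not called (limma adjusted p = 0.139), but it was called higher under median scaling, at 0.31.

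Downstream of that step the genes called were higher, except for Aldoc. Eno2, the enolase best known from neurons (chromosome 6, 124710545 to 124710604), gave 3294 in Gadd45a, 3117 in G39A and 3372 in Flag in replicate 2, against 1332 in Gadd45a, 996 in G39A and 1085 in Flag in replicate 1. That was a rise of 1.53 ± 0.10 (limma adjusted p = 0.000722), while Eno1, the enolase of most tissues, rose by 0.86 ± 0.08. Tpi1, triosephosphate isomerase (chromosome 6, 124760947 to 124761006), gave 75173 in Gadd45a, 66226 in G39A and 61450 in Flag in replicate 2, against 28294 in Gadd45a, 28334 in G39A and 28991 in Flag in replicate 1. The difference was 1.24 ± 0.10, or 2.36-fold (limma adjusted p = 0.00101). Aldoa, the main aldolase of muscle and most cells (chromosome 7, 133938799 to 133938858), gave 238519 in Gadd45a, 213532 in G39A and 214372 in Flag in replicate 2, against 121814 in Gadd45a, 115441 in G39A and 118735 in Flag in replicate 1, a rise of 0.90 ± 0.08 (limma adjusted p = 0.00123). Aldoc, the brain aldolase, fell with a difference of -0.45 ± 0.08 (limma adjusted p = 0.00948; from 0.00217 to 0.0538 over the alternatives).

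The remaining enzymes of the later steps rose by less than 2-fold. Pgk1, phosphoglycerate kinase, rose by 0.86, Pgam1, phosphoglycerate mutase, by 0.76, Ldhb, the heart-type lactate dehydrogenase, by 0.75, and Ldha, the muscle type, by 0.57. After quantile normalization these differences were 0.56 for Pgk1, 0.46 for Pgam1 and 0.25 for Ldha. Gapdh, an enzyme often used as a loading control, rose by 0.48 ± 0.10 (limma adjusted p = 0.0173), but it was not called after quantile normalization, at 0.18. The Pgk1 probe is placed on chromosome 3 (57906703 to 57906762, mm9) by the file, whereas RefSeq places the gene on chromosome X, so it may read a near-identical copy and its value is uncertain. Its other probe differed by 0.81.

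The genes of the first steps of glycolysis were not called with the main scaling. Hk1 and Hk2, the hexokinases that trap glucose in the cell, differed by 0.08 ± 0.08 and -0.13 ± 0.20, and Gpi1, glucose phosphate isomerase, by -0.14 ± 0.09, with signs that flip for Hk1 under quantile normalization and in the deposited table, and for Hk2 and Gpi1 under median scaling. Gpi1 was lower past the threshold under quantile normalization, at -0.47, and in the authors' value table, also at -0.47. Hk2 did not move alike in the 3 groups: replicate 2 minus replicate 1 was 0.37 in Gadd45a, -0.20 in G39A and -0.57 in Flag. Outside these first steps, Pkm, pyruvate kinase, differed by 0.25 ± 0.12 and was not called either (limma adjusted p = 0.129). It was called higher under median scaling and when the probes of a gene were averaged, at up to 0.40.

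The regulators split as well. Pfkfb3 and Pfkfb4 encode enzymes that make and remove fructose 2,6-bisphosphate, an activator of phosphofructokinase. Pfkfb3 (chromosome 2, 11393579 to 11393638) gave 5060 in Gadd45a, 4869 in G39A and 4486 in Flag in replicate 2, against 1257 in Gadd45a, 1810 in G39A and 1620 in Flag in replicate 1. It was higher by 1.64 ± 0.15, or 3.11-fold (limma adjusted p = 0.00146). Pfkfb4 (chromosome 9, 108934627 to 108934686) gave 842 in Gadd45a, 854 in G39A and 854 in Flag in replicate 2, against 1651 in Gadd45a, 1517 in G39A and 1644 in Flag in replicate 1. It fell with a difference of -0.91 ± 0.08, or 1.89-fold lower (limma adjusted p = 0.00128).

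Pdk1, the kinase that holds pyruvate out of the mitochondrial oxidation route (chromosome 2, 71741820 to 71741879), gave 1817 in Gadd45a, 1850 in G39A and 1748 in Flag in replicate 2, against 701 in Gadd45a, 733 in G39A and 743 in Flag in replicate 1. Its rise of 1.31 ± 0.08 was 2.49-fold (limma adjusted p = 0.000492).

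The 4 genes of oxygen sensing parted evenly, with 2 called higher and 2 lower in replicate 2, beside 33% and 23.4% of all genes tested. Hif1a, the broadly expressed HIF alpha subunit (chromosome 12, 75047269 to 75047329), gave 10441 in Gadd45a, 10966 in G39A and 9074 in Flag in replicate 2, against 2589 in Gadd45a, 2623 in G39A and 2760 in Flag in replicate 1. It was higher by 1.93 ± 0.10, or 3.81-fold (limma adjusted p = 0.000389). Epas1, which encodes HIF-2 alpha, the subunit first described in endothelium (chromosome 17, 87232615 to 87232674), gave 2049 in Gadd45a, 2730 in G39A and 3237 in Flag in replicate 2, against 23069 in Gadd45a, 20300 in G39A and 22526 in Flag in replicate 1. It was lower with a difference of -3.06 ± 0.16, or 8.35-fold lower (limma adjusted p = 0.000396). The genes of these related subunits thus changed in opposite directions on arrays of every group.

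Of the prolyl hydroxylases, Egln1, the main oxygen sensor of most cells (chromosome 8, 127433241 to 127433300), gave 1440 in Gadd45a, 1539 in G39A and 1483 in Flag in replicate 2, against 978 in Gadd45a, 982 in G39A and 982 in Flag in replicate 1. It rose by 0.60 ± 0.07 (limma adjusted p = 0.00361). Egln3, which is itself a HIF target (chromosome 12, 55280953 to 55281012), gave 479 in Gadd45a, 328 in G39A and 327 in Flag in replicate 2, against 1181 in Gadd45a, 1177 in G39A and 1216 in Flag in replicate 1. It fell with a difference of -1.68 ± 0.15, or 3.21-fold lower (limma adjusted p = 0.00139), unlike the 9 targets described next.

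All 9 hypoxia targets tested were higher in replicate 2, with a median difference of 1.72, and 8 of them at least 2-fold, of which Car9 was not after normexp background correction. Of all genes tested, 33% were called higher, and 10.4% at least 2-fold higher. Adm, the vasodilator peptide adrenomedullin (chromosome 7, 117773088 to 117773147), gave 6578 in Gadd45a, 5607 in G39A and 5157 in Flag in replicate 2, against 761 in Gadd45a, 826 in G39A and 853 in Flag in replicate 1. Its rise of 2.82 ± 0.13, or 7.08-fold, was the largest of the targets (limma adjusted p = 0.000266). Bnip3, which acts in mitophagy and cell death (chromosome 7, 146083077 to 146083136), gave 22711 in Gadd45a, 20230 in G39A and 16703 in Flag in replicate 2, against 3137 in Gadd45a, 3242 in G39A and 3467 in Flag in replicate 1. It rose by 2.59 ± 0.14, or 6.02-fold (limma adjusted p = 0.000386).

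The collagen prolyl hydroxylases, which prepare collagen for secretion, rose together. P4ha2 (chromosome 11, 53945032 to 53945091) gave 5886 in Gadd45a, 5102 in G39A and 5151 in Flag in replicate 2, against 1344 in Gadd45a, 1578 in G39A and 1427 in Flag in replicate 1, a rise of 1.89 ± 0.11 (limma adjusted p = 0.000504). P4ha1 (chromosome 10, 58834272 to 58834331) gave 6479 in Gadd45a, 5524 in G39A and 4998 in Flag in replicate 2, against 1823 in Gadd45a, 1626 in G39A and 1995 in Flag in replicate 1, a rise of 1.64 ± 0.13 (limma adjusted p = 0.00105).

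Ddit4, the stress-induced inhibitor of mTOR signalling known as REDD1 (chromosome 10, 59412486 to 59412545), gave 24217 in Gadd45a, 18921 in G39A and 22182 in Flag in replicate 2, against 6154 in Gadd45a, 6058 in G39A and 5875 in Flag in replicate 1. It rose by 1.85 ± 0.10, or 3.59-fold (limma adjusted p = 0.000405). Vegfa, the main growth factor of blood vessels (chromosome 17, 46154387 to 46154446), gave 7312 in Gadd45a, 5714 in G39A and 6110 in Flag in replicate 2, against 2194 in Gadd45a, 1770 in G39A and 1851 in Flag in replicate 1. It rose by 1.72 ± 0.07, or 3.29-fold (limma adjusted p = 0.000237). In both replicate numbers the Gadd45a array was the brightest of the 3 for Vegfa, as it was for Ddit4. Ndrg1, a stress-induced gene of cell differentiation, and Ankrd37, a HIF target of poorly known function, rose by 1.55 ± 0.14 (limma adjusted p = 0.00153) and 0.63 ± 0.12 (limma adjusted p = 0.0136; 0.0547, and so not called, without the filter on dim probes).

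The carbonic anhydrases Car9 and Car12 sit at the cell surface and help export the acid that glycolysis makes. Car9 (chromosome 4, 43526023 to 43526082) was dim, with 112 in Gadd45a, 108 in G39A and 103 in Flag in replicate 2, against 33.0 in Gadd45a, 45.3 in G39A and 26.8 in Flag in replicate 1. The Gadd45a replicate 1 array was not well above background for it, so the difference of 1.65 ± 0.16 (limma adjusted p = 0.00171) rests in part on a signal near background. It was 0.80 after normexp background correction. Car12 (chromosome 9, 66614036 to 66614095) gave 256 in Gadd45a, 188 in G39A and 162 in Flag in replicate 2. In replicate 1 it was not well above background on any array, at 19.1 in Gadd45a, 20.5 in G39A and 19.9 in Flag, so the size of its rise is uncertain. Measured against the dimmest signals that were well above background on the replicate 1 arrays, it was 8.26-fold higher in replicate 2. That level is the lowest such signal of each array, so it gives no strict lower bound.

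**Figure D3:**
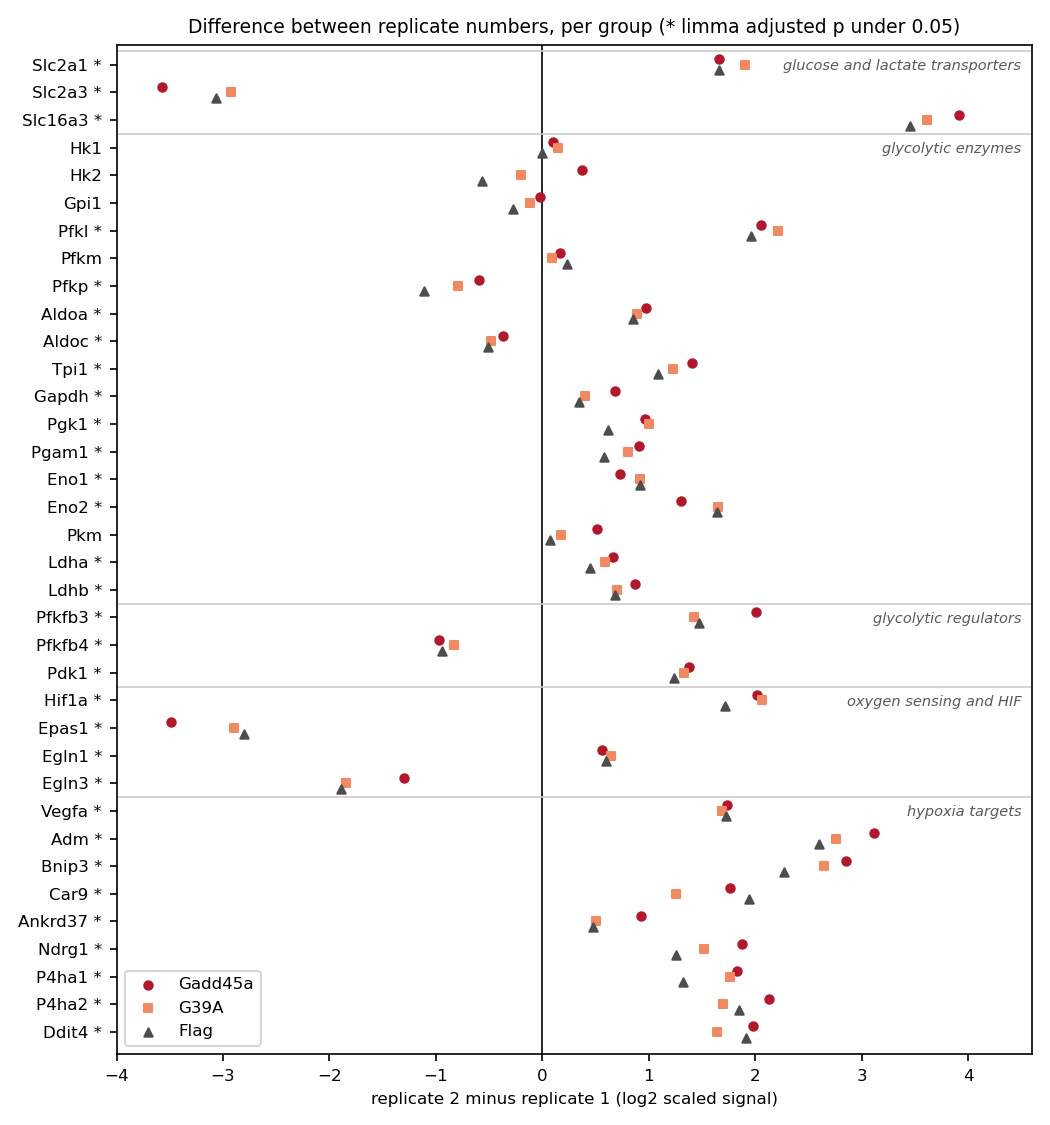
Log2 difference of scaled signal between replicate 2 and replicate 1 for the 36 genes tested, by list, with 1 symbol for each of Gadd45a, G39A and Flag. An asterisk marks genes called by limma. The 3 symbols of a called gene lie on the same side of 0 in each of the 31 cases, from -3.19 for Slc2a3 to 3.66 for Slc16a3 as means of the groups.

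Beyond the 37 genes, 40 further genes of glucose and pyruvate metabolism and 40 further hypoxia response genes were listed. Of 31 glucose and pyruvate genes tested, 12 rose, 8 fell and 11 were not called, a share of 64.5% called beside 56.4% of all genes, with a median difference of 0.07. Of 35 hypoxia genes tested, 20 rose, 11 fell and 4 were not called, a share of 88.6%, with a median of 0.41. The rise seen in all 9 targets above was therefore not shared by every hypoxia gene.

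Ppp1r3c, a subunit that directs a phosphatase to glycogen, gave 529 in Gadd45a, 767 in G39A and 820 in Flag in replicate 2, against 15.2 in Gadd45a, 24.3 in G39A and 19.6 in Flag in replicate 1. It was higher past the threshold, but it was well above background on 1 of the 3 replicate 1 arrays, so no size is given for its rise. Angptl4, a secreted inhibitor of lipoprotein lipase, rose by 3.03, and Lox, the enzyme that cross-links collagen, by 2.35. Pgam2, the muscle phosphoglycerate mutase, rose by 2.67, Pdk4, a pyruvate dehydrogenase kinase, by 2.57, and Pdp1, a phosphatase that works against those kinases, by 2.33. Pdk4 and Pdp1, which act on pyruvate dehydrogenase in opposite ways, thus both rose.

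Fbp1, the fructose bisphosphatase of gluconeogenesis, which runs the phosphofructokinase step backwards, gave 36.2 in Gadd45a, 14.8 in G39A and 22.9 in Flag in replicate 2, against 1658 in Gadd45a, 1091 in G39A and 1319 in Flag in replicate 1. It was lower past the threshold, but it was well above background on 2 of the 3 replicate 2 arrays, so no size is given for its fall. Slc2a12, a further glucose transporter, differed by -2.55 and Tigar, a fructose bisphosphatase induced by p53, by -1.86. Among the hypoxia genes, the secreted proteins Stc2, Edn1 and Igfbp3 fell with differences of -3.06, -2.61 and -1.99. All 12 of these genes named had limma adjusted p-values of at most 0.00166, which for Ppp1r3c and Fbp1 rest in part on dim signals.

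Markers of cell types also differed between the replicate numbers. Of all genes tested, 56.4% were called between them, 33% higher and 23.4% lower. The summed scaled signal of 15 fibroblast markers, all well above background on the replicate 2 arrays and 14 of them on all replicate 1 arrays, was 1073720 to 1117760 in replicate 2, against 614462 to 695966 in replicate 1, and 12 of the 15 were called higher and 0 lower. Of 12 pluripotency markers, 11 had a probe. Their sum was 397 to 426 in replicate 2, against 4415 to 6090 in replicate 1. Pou5f1, which encodes the reprogramming factor Oct4, made up most of that sum in replicate 1 and was not well above background on any replicate 2 array, and Lin28a, Tdgf1, Utf1, Dppa3 and Esrrb were not well above background on any array. Whether the Pou5f1 probe could read an introduced copy is not given in the sources used here. Zfp42 gave 7.41 to 9.84 in replicate 2, against 160 to 369 in replicate 1. It was well above background on all replicate 1 arrays and on no replicate 2 array. Nanog was well above background on 2 of the 3 replicate 1 arrays and on no replicate 2 array. Sox2 went the other way, well above background on 1 of the 3 replicate 2 arrays and on no replicate 1 array. The 2 tested ones, Dppa5a and Sall4, were not called. Dppa5a gave 219 to 225 in replicate 2, against 174 to 208 in replicate 1, and Sall4 119 to 127 in replicate 2, against 98.7 to 140 in replicate 1.

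The sum of 12 epithelial markers was 1830 to 3157 in replicate 2, against 5991 to 6299 in replicate 1, and Cdh1 and Epcam were well above background in replicate 1 alone. Of 5 epithelial markers tested, 0 were called higher and 3 lower, while the keratins Krt18, at 737 to 1912 in replicate 2 against 789 to 980 in replicate 1, and Krt19, at 886 to 1088 in replicate 2 against 893 to 1051 in replicate 1, overlapped. The sum of 10 endothelial markers was 1706 to 2670 in replicate 2, against 1182 to 1195 in replicate 1, and Pecam1 and Cdh5 were not well above background on any array. Of 6 endothelial markers tested, 3 were called higher and 2 lower: Emcn gave 430 to 1107 in replicate 2, against 105 to 176 in replicate 1, whereas Tek gave 14.3 to 25.8 in replicate 2, against 596 to 639 in replicate 1. The sum of 12 macrophage markers was 6061 to 9708 in replicate 2, against 2385 to 2495 in replicate 1, and Ptprc was not well above background on any array. Lyz2 alone gave 4452 to 7820 of the replicate 2 sums, and of 8 macrophage markers tested 4 were called higher and 2 lower, with Itgam at 19.7 to 60.7 in replicate 2, against 210 to 302 in replicate 1. That of 10 muscle markers was 18850 to 21980 in replicate 2, against 3692 to 3965 in replicate 1, 4 of 7 tested were called higher and 1 lower, and Myod1, Myog and Ckm were not well above background on any array. The shares called were 60% of the epithelial, 83.3% of the endothelial, 75% of the macrophage and 71.4% of the muscle markers tested. Each rests on few genes and stands beside 56.4% of all genes tested. The part of these markers in the differences of the glycolysis and hypoxia genes was not tested, and in bulk RNA fewer cells of a type and less RNA per cell cannot be told apart.

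The comparison of Gadd45a with Flag asks which genes the introduced gene changes during reprogramming. None of the 36 genes was called (limma, 0 of 36; 0% of all 15650 genes tested), and none had an unadjusted p under 0.05, where 0.62% of all genes did. In all 3 comparisons between groups, the fit without the block counts the replicate difference as spread. For Slc2a1 the SE was 1.03 without the block and 0.11 with it. Counts of small p without the block thus say little about genes that differ between replicate numbers. With the replicate number as a block, again 0 of 36 and 0% of all genes were called. In this fit of limma, 4 of 36 had an unadjusted p under 0.05, beside 8.59% of all genes. These were Ldhb, Slc2a1, Slc16a3 and Vegfa, the last of which was named after its values were seen. The median difference was 0.11 for the glycolysis genes and 0.11 for the hypoxia genes.

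Within replicate numbers the genes did not behave alike. In replicate 2, where all arrays shared a slide, 28 of 36 genes were higher in Gadd45a than in Flag, with a median of 0.20, beside 49.6% of all genes. In replicate 1, where these arrays also shared a slide, 13 of 36 were higher, with a median of -0.04, beside 40.7% of all genes. All 9 hypoxia targets were higher in replicate 2, by 0.12 to 0.60, against 3 of 9 in replicate 1. In both numbers 9 genes were higher and 4 lower, beside 23.4% and 33.1% of all genes. The difference between Gadd45a and Flag was larger in replicate 2 than in replicate 1 for 17 of 23 glycolysis genes and 10 of 13 hypoxia genes, beside 55.6% of all genes. With 1 array of each group per replicate number, this contrast between the numbers was not tested.

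Ldhb (chromosome 6, 142438838 to 142438897) had the smallest p with the block. It gave 10303 in Gadd45a, 11566 in G39A and 13017 in Flag in replicate 2, and 5653 in Gadd45a, 7113 in G39A and 8110 in Flag in replicate 1. The Gadd45a array was the lowest and the Flag array the highest in both numbers, and Gadd45a minus Flag was -0.34 in replicate 2, and -0.52 in replicate 1. The mean difference of -0.43 had an SE of 0.10 with the block (limma adjusted p = 0.491; from 0.378 to 1 over the alternatives), and of 0.47 without it.

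Slc2a1, whose signals are given above, was higher in Gadd45a than in Flag by 0.44 in replicate 2 and 0.45 in replicate 1 (limma with the block, adjusted p = 0.491; from 0.491 to 1 over the alternatives). For Slc16a3 the difference was 0.64 in replicate 2 and 0.18 in replicate 1 (limma with the block, adjusted p = 0.568; from 0.568 to 1 over the alternatives). The largest differences within a replicate number were those of Hk2, at 0.72 in replicate 2 and -0.22 in replicate 1, and of Epas1, at -0.66 in replicate 2 and 0.03 in replicate 1.

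In G39A against Flag, 0 of 36 genes were called (0% of all genes), with or without the block. None had an unadjusted p under 0.05 in either fit of limma, where 0.524% of all genes did without the block and 2.89% with it. In replicate 2, 27 of 36 genes were higher in G39A than in Flag, beside 49.4% of all genes, and in replicate 1, where the arrays were on different slides, 8 of 36, beside 41.4%. In both numbers 6 were higher and 7 lower, beside 19.3% and 28.6% of all genes. Car9 had the smallest p, with G39A minus Flag at 0.07 in replicate 2 and at 0.76 in replicate 1, from the dim signals given above. Their mean of 0.42 was 0.07 after normexp background correction and 0.14 with slide as a random block. Ldhb followed, with -0.17 in replicate 2 and -0.19 in replicate 1. Aldoc (chromosome 11, 78139964 to 78140023) gave 900 in Gadd45a, 1123 in G39A and 1011 in Flag in replicate 2, and 1161 in Gadd45a, 1565 in G39A and 1437 in Flag in replicate 1. G39A was the highest of the 3 groups for Aldoc in both numbers, by 0.15 over Flag in replicate 2 and 0.12 in replicate 1, a mean of 0.14 that was 0.087 when the probes of the gene were averaged. The limma adjusted p with the block was 0.991 for each of these 3 genes.

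In Gadd45a against G39A, the comparison of the gene with its mutant, 0 of 36 genes were called in either fit (0% of all genes). None had an unadjusted p under 0.05 without the block, where 0.728% of all genes did. With the block 4 of 36 did, beside 8.88% of all genes. These were Aldoc, Vegfa, Slc2a1 and Slc16a3, the last of which was named after its values were seen. In replicate 2, 26 of 36 genes were higher in Gadd45a than in G39A, beside 50.5% of all genes, and in replicate 1, across slides, 17 of 36, beside 51.1%. In both replicate numbers 14 genes were higher and 7 lower, beside 30.8% and 29.3% of all genes. The 3 comparisons between groups share arrays, so their results are not independent.

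Gadd45a minus G39A was -0.32 in replicate 2 and -0.43 in replicate 1 for Aldoc, so the Gadd45a array was the lower one in both. For Vegfa it was 0.36 in replicate 2 and 0.31 in replicate 1. For Slc2a1 it was 0.29 in replicate 2 and 0.53 in replicate 1. The limma adjusted p with the block was 0.52 for each of these 3 genes, and from 0.52 to 1 over the alternatives. For Slc2a1 and Vegfa, the Gadd45a array was thus the brightest of the 3 in both replicate numbers, by differences that did not pass the threshold. The same order held for Slc16a3, Pfkl, Aldoa, Eno1, Ddit4 and Hk1, and its share over all genes was not counted.

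**Figure D4:**
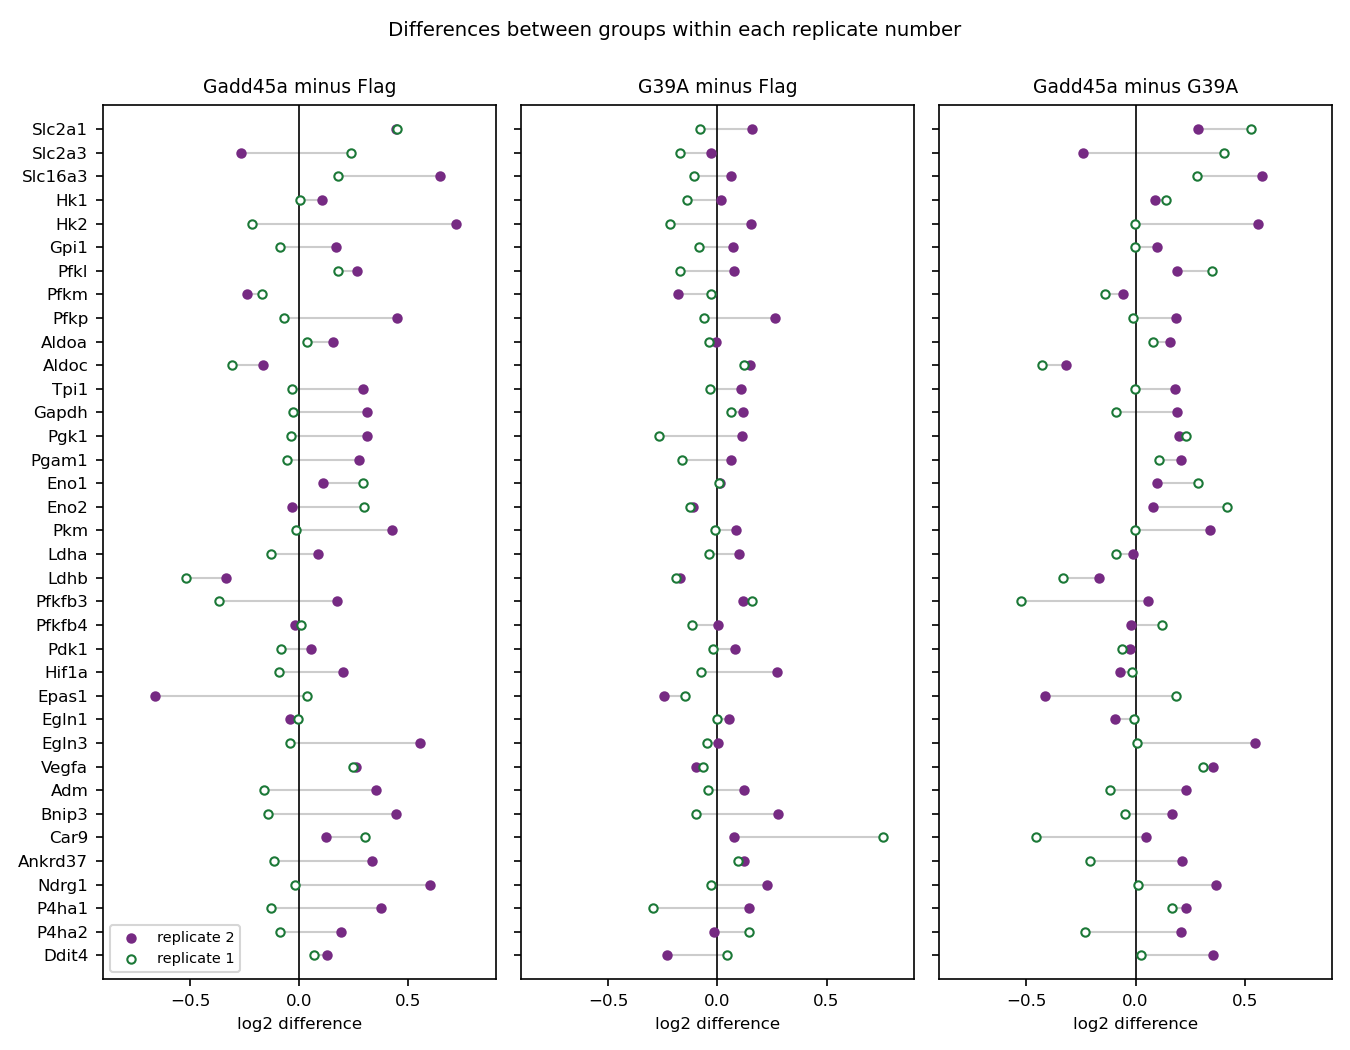
Log2 differences between groups for the 36 genes tested, within replicate 2 (filled) and replicate 1 (open), with a line joining the 2 values of a gene. Gadd45a minus Flag is positive for 28 genes in replicate 2 and for 13 in replicate 1, and none of the genes was called in any of the 3 comparisons.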

How the data were processed

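Per the file headers, the deposited processed intensity was made with Agilent Feature Extraction (version 10.7, per the submitters' processing notes) by background subtraction and detrending, with surrogate values for dim spots. The deposited marks for spots well above background, saturated or outlying are 0 or 1. The authors' value table holds log2 values with nearly equal distributions over its 6 columns (medians 6.17), not centred by gene, and the way it was normalized is not stated in the sources used here.

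Control spots and marked outliers were dropped, spots averaged per probe, and arrays scaled to their 75th percentile on the log2 scale. Of 41174 probes, 27668 were named through RefSeq accessions (GRCm38.p6) and the others kept the file's name. Coordinates are the files' (mm9), and exons were not annotated. Each gene was read by its brightest probe among those well above background on both arrays of a group and unmarked on all arrays.

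Limma 3.58 (R 4.3) was fitted to all 6 arrays: groups without a block (3 residual degrees of freedom), and replicate 2 against replicate 1 with groups as a term. Same-numbered arrays deviated together (correlations of 0.911 to 0.915; 86.1% of the variance on the first principal component), so the numbers were taken to pair the arrays, and the blocked fit (2 degrees of freedom) is given. Precision is limited by the number of arrays, with a median SE of 0.32 without the block, 0.12 with it and 0.10 between replicate numbers. All array values were printed for the oxygen sensing genes and for up to 10 called genes of each list by size, or else for the 3 of smallest p with the block, and up to 6 further pathway genes were named each way. Members and lists were chosen with earlier results of these data known. The fits were tested on simulated data. Alternatives were normexp, median and quantile scaling, the authors' table, other filters and probes, slide as a random block, leaving out each array and, added after seeing the data, a filter that also admits probes bright on all 3 arrays of a replicate number.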

Additional observations from a re-analysis of the deposited data

How the results depend on the processing

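The call counts of the members held within 1.5 times under every alternative run: 0 in each comparison between groups, also with the replicate block and with slide as a random block, and 16 to 20 glycolysis and 12 to 14 hypoxia genes between replicate numbers. Car12 was called by the filter added after seeing the data, and also without the filter on dim probes. The added filter admitted Car12 because its probe was bright on all 3 replicate 2 arrays. Its call under that filter, which makes the 14 hypoxia genes, is therefore no support for the rise. Both calls use replicate 1 signals that were not well above background. Median scaling shifted all genes (median 0.25 in place of 0.11, 69.3% of calls higher in place of 58.5%) and the medians of the glycolysis and hypoxia genes to 0.89 and 1.80. Less the median of all genes these were 0.64 and 1.54 under both scalings, by construction, since each shifts all genes of an array alike. Less the same median, they were 0.39 and 1.56 after quantile normalization. The glycolysis median was 0.46 after quantile normalization and 0.45 in the deposited table. Hk1 turned to -0.083 and -0.082 in these, and Hk2 and Gpi1 to 0.011 and 0.0031 under median scaling. Hk2 ran from -0.38 to 0.087 over the arrays left out, each of which takes its group out of the contrast.

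Gapdh lost its call in 7 settings, at 0.18 after quantile normalization, 0.19 in the deposited table and 0.48 without the filter on dim probes, and at 0.38 without either Gadd45a array and 0.52 without either G39A array. Aldoc lost it without the filter and without either G39A array (-0.44), and Ankrd37 without the filter.

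Leaving out 1 array brings the difference between replicate numbers into a comparison of groups, by construction. The ranges over the arrays left out were -0.35 to 0.48 (glycolysis median) and -0.67 to 1.09 (hypoxia median) for Gadd45a against Flag, -0.45 to 0.32 and -0.78 to 0.81 for G39A against Flag, and -0.29 to 0.47 and -0.75 to 1.05 for Gadd45a against G39A. For Gadd45a against Flag, single genes ran from -0.86 to 0.0039 (Ldhb), -0.39 to 1.28 (Slc2a1) and -1.55 to 2.37 (Slc16a3). For G39A against Flag they ran from -0.56 to 1.39 (Car9), -0.53 to 0.17 (Ldhb) and -0.12 to 0.39 (Aldoc), and for Gadd45a against G39A from -0.54 to 1.20 (Vegfa), -0.54 to 1.36 (Slc2a1) and -0.61 to -0.14 (Aldoc). Slide as a random block called 19, 3 and 7 genes of all genes in these comparisons. With the replicate block the difference for each of these genes was unchanged, since each number holds every group (0.11 for the glycolysis median of Gadd45a against Flag).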

Other observations

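Of the 37 genes, 15 had 21 further probes that were well above background on all arrays, and each of the 21 had the sign of its gene's main probe between replicate 2 and replicate 1. The size differed for some: the 3 probes of Pkm gave differences of 0.25, 0.07 and 0.87, those of Ldha 0.57 and 0.94, and those of Pfkp -0.84, -0.23 and -0.86. For Gadd45a against Flag, 17 of the 21 had the sign of the main probe, and the exceptions belonged to Ldha, Pfkfb3, Pfkp and Tpi1.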
